A study of Mus musculus with 6 samples.

Results

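The genes described here are the ligands, receptors and signal transducers of the Wnt pathway, measured in growth plate chondrocytes of control and Lkb1 mutant mice. The rule took every gene whose symbol is Wnt or Fzd followed by a number, together with named coreceptors, the R-spondins and their receptors, the ligand secretion factors and the intracellular transducers. It named 51 genes, of which 50 had a probe set annotated to exactly 1 gene; Tcf7 was not analysed here. These 50 stand among 19938 genes with such a probe set, and 49 of them were among the 17020 genes tested. Wnt3 was measured but fell under the filter on low values.

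Chondrocytes of the hindlimb growth plate, taken from femurs and tibiae at postnatal day 30, were compared on Affymetrix arrays. The control group had 3 arrays and the group labelled conditional Lkb1 mutant had 3. Both groups shared the background strain given as mixed FVB, 129S6 and C57CL/6. Lkb1, whose gene symbol is Stk11, is a kinase that activates AMPK and related kinases. The labels do not name the Cre driver, the genotype of the controls, or the age at which Lkb1 was deleted. The labels call the samples biological replicates without naming animals or litters, so each p-value rests on the spread among these 6 samples, which may be partly technical.

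Wnts are secreted, lipid-modified signals that bind a Frizzled receptor on the cell surface. When an Lrp5 or Lrp6 coreceptor is bound as well, the complex of Axin, Apc and Gsk3 no longer marks beta-catenin for destruction, and beta-catenin acts with Lef1 and Tcf proteins on target genes. Other Wnts act through Ror and Ryk receptors and the planar polarity proteins, and R-spondins bound to Lgr receptors keep Frizzleds on the membrane. In the growth plate, Wnt signals from chondrocytes and from the perichondrium are known to set the pace of proliferation, column formation and hypertrophy.

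Levels are log2 of the deposited intensity plus 1, and differences are mutant minus control with the standard error of the limma fit. A gene was called changed at an adjusted p of 0.05 or less, adjusted over all genes tested. A level was counted as above background when it exceeded the 95% point of 1035 olfactory receptor probe sets on the same array. Arrays had median intensities between 82.4 and 90.5. The Stk11 probe set lay at 8.68, 9.08 and 9.67 on control arrays 1, 2 and 3 and at 7.39, 7.51 and 7.52 on mutant arrays 1, 2 and 3 (difference -1.67 ± 0.22, adjusted p = 0.00387); whether it covers the deleted exons is not known here. Markers of marrow blood cells, 27 erythroid, neutrophil and B lymphoid genes, averaged 8.31, 9.01 and 9.71 on control arrays 1, 2 and 3 and between 5.96 and 6.19 on the mutant arrays. Chondrocyte markers averaged between 11.05 and 11.22 on the control arrays and between 10.97 and 11.10 on the mutant arrays. All 14 were above background on every array, and 0 were higher and 1 lower in the mutants. These values do not measure how pure the samples were. In such bulk RNA, more cells of a type and more RNA per cell cannot be told apart.

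The upstream sequences of the genes on which the account turns most are shown first, since expression of a receptor or ligand starts there. Each is the 250 bases before the gene's annotated start, from RefSeq GRCm38.p6, written 5′ to 3′ on the strand of the gene. Fzd9, the Frizzled with the largest rise, has its start on the minus strand after chr5:135251048-135251297, and Fzd1, the next Frizzled, on the minus strand after chr5:4758217-4758466. Rspo4, the member that fell most, lies on the plus strand after chr2:151842677-151842926. In these 3 sequences capitals mark the CG dinucleotides. The fourth is the window before 1 of the 3 annotated starts of Wnt5b, on the minus strand at chr6:119449387-119449636, where capitals mark the only match to the Lef1 and Tcf core motif CTTTGAT.
Fzd9: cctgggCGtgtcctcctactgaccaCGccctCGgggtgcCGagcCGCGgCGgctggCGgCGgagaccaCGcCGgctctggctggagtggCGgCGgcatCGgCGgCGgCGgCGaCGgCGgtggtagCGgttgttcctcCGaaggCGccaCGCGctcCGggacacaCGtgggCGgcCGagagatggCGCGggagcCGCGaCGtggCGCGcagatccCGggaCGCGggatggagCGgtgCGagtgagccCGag
Fzd1: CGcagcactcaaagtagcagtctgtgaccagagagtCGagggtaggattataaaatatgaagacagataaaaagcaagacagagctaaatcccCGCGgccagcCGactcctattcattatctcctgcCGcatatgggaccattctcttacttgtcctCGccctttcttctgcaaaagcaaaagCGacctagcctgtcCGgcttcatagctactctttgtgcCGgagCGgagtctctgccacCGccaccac
Rspo4: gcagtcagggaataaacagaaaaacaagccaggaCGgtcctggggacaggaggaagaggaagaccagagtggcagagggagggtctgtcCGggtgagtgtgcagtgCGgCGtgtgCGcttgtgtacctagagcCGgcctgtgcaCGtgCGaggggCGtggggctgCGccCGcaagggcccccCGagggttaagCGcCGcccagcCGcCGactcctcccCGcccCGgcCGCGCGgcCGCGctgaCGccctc
Wnt5b: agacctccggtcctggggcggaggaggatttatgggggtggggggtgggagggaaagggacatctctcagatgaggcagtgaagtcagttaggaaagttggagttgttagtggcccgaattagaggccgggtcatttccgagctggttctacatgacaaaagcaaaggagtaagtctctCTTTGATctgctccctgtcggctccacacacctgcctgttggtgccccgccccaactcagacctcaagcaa

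The window of Fzd9 held 42 CG dinucleotides and 76.4% G or C, that of Rspo4 held 24 and 69.6%, and that of Fzd1 held 12 and 51.2%. Sequences were matched for 34 of the 50 members. Those without an entry were Wnt5a, Wnt7b, Wnt8a, Wnt10a, Fzd2, Fzd3, Fzd6, Fzd8, Lrp5, Lrp6, Lgr5, Rspo2, Rspo3, Porcn, Axin1 and Apc. Over the matched members the median was 24 CG dinucleotides, taking the richest window of each gene, against 14 over the tested genes. For the 6 matched Frizzleds it was 28.5. A search of both strands for CTTTGAT and CTTTGAA, which overlap in their first letters, found 2 of 42 member windows with a match (4.76%), against 7.48% of all 32851 windows of this length. The matches lay before Wnt5b, 71 bases ahead of the start, and before Wnt11, 51 bases ahead. Counted by gene, 5.88% of the matched members and 7.15% of the tested genes had a match. The median content of G or C, taking the richest window of each gene, was 71.2% over the matched members. Over the tested genes it was 59.2%. The part of this content in the shares with a match was not tested. A match is a string of letters in these windows and no evidence of binding.

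More of the Wnt genes were higher in the mutant arrays than lower, and the receptors carried most of that rise. Of the 49 tested members, 18 rose, 2 fell and 29 did not pass the test. The 20 calls made up 40.8% of the members, beside 14.7% of all genes tested. The rises compare with 7.84% of all genes called higher, and the falls with 6.82% called lower. All 3 mutant arrays lay above all 3 control arrays for 21 members, a pattern shown by 20.0% of all genes tested. The reverse held for 2 members, against 16.7% of all genes. The median difference was 0.12 over the members and 0.03 over all genes tested. Because members were picked with earlier results known, these counts describe the list and are not a test of it.

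The number of calls depended on single arrays. Without mutant replicate 3 there were 12 calls, without mutant replicate 2 or control replicate 2 there were 13, and without control replicate 1 there were 19. Calls over all genes moved too, to 5.5% without mutant replicate 3. The 12 members that kept their call in every alternative fit that tested them were Fzd1, Fzd2, Fzd3, Fzd4, Fzd9, Lrp5, Lrp6, Porcn, Wls, Lef1, Rspo4 and Wnt5b.

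**Figure D1:**
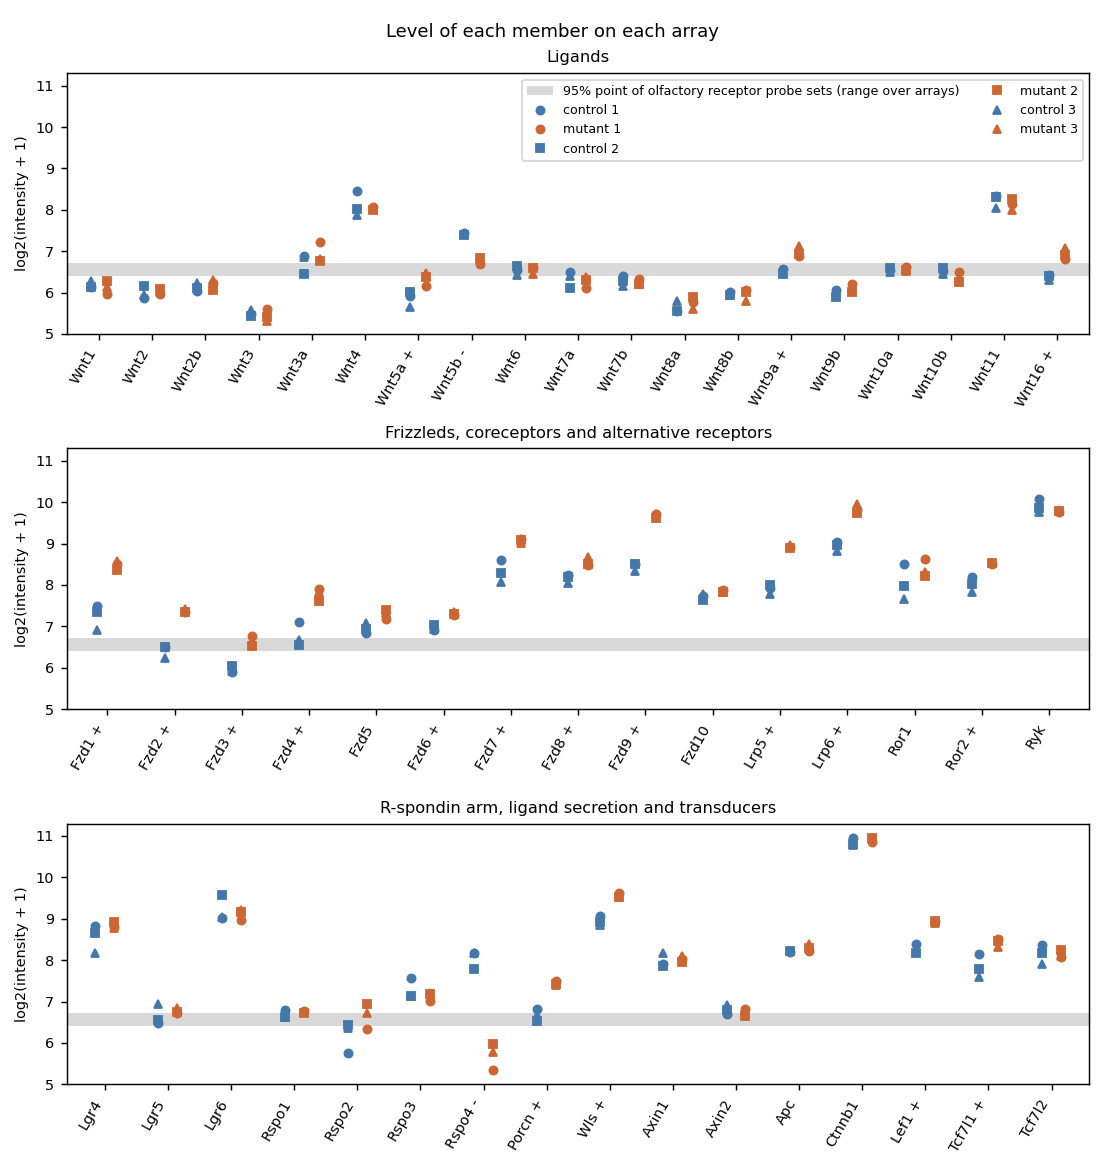
Level of each of the 50 members on each array, as log2 of intensity plus 1, with controls in blue and mutants in orange; a plus or minus after a symbol marks a member called higher or lower, and the grey band spans the background points of the 6 arrays. The Frizzleds are shifted upward in the mutants, most ligands lie in or under the band, and Rspo4 drops from about 8 into the background.

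Among the Frizzleds, the transmembrane receptors that bind Wnts directly, 8 of 10 rose and none fell. That is a share of 80%, beside 14.7% of all genes tested. The median difference of the family was 0.72. In all 10 every mutant array lay above every control array, a pattern shown by 20.0% of all genes tested. The mean level of the family was 7.38, 7.31 and 7.20 on control arrays 1, 2 and 3 and 8.01, 7.96 and 8.04 on mutant arrays 1, 2 and 3. Leaving out control replicate 2, or any of the 3 mutant replicates in turn, left 5 called.

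Fzd9, a receptor known for its role in bone formation by osteoblasts, had the largest rise. Its level was 8.51, 8.51 and 8.34 on control arrays 1, 2 and 3 and 9.71, 9.63 and 9.72 on mutant arrays 1, 2 and 3. The gap between the groups was wider than the spread within either. The difference was 1.24 ± 0.09 (SE, n = 3 per group; adjusted p = 0.00047), a 2.35-fold higher intensity. Fzd1, a receptor used in beta-catenin signalling, lay at 7.49, 7.36 and 6.91 on the control arrays and at 8.51, 8.36 and 8.57 on the mutant arrays. Its lowest mutant array exceeded its highest control array, although control replicate 3 sat below the other controls. The rise was 1.23 ± 0.16 (adjusted p = 0.00322), also 2.35-fold.

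Fzd4, which also binds the non-Wnt ligand norrin in blood vessels of the retina, read 7.10, 6.56 and 6.66 in the controls and 7.90, 7.62 and 7.84 in the mutants. Only 2 of 3 control arrays were above background, and all mutant arrays were. The difference was 1.01 ± 0.16 (adjusted p = 0.00626). Fzd2, a receptor for Wnt5a among others, measured 6.50, 6.49 and 6.25 in the controls and 7.35, 7.34 and 7.43 in the mutants. The controls lay near background, with 1 of 3 above it, and the mutants were tightly grouped above. Its difference of 0.96 ± 0.10 had an adjusted p of 0.00144. Fzd3, a Frizzled of the planar polarity branch, had levels of 5.89, 6.04 and 5.91 in the controls and 6.76, 6.52 and 6.64 in the mutants. No control array and 2 of 3 mutant arrays were above background, so only a bound of at least 1.07-fold can be given, with an adjusted p of 0.00473 for the measured difference of 0.69. Such a bound sets the mean of the mutant arrays against the lowest signal that counts as above background on the control arrays.

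Fzd7, a receptor found on many progenitor cells, was at 8.60, 8.29 and 8.07 in the controls and at 9.10, 9.08 and 9.02 in the mutants. The control arrays spread over a wider range than the mutant arrays, with control replicate 1 highest. The difference was 0.75 ± 0.14 (adjusted p = 0.0123), and the call was lost in 4 of 15 alternative fits with adjusted p up to 0.0542. Fzd8 measured 8.25, 8.20 and 8.05 in the controls and 8.48, 8.51 and 8.68 in the mutants, and Fzd6, the other planar polarity Frizzled, measured 6.92, 7.04 and 6.94 and 7.27, 7.31 and 7.35. Both groups were separated in each gene, but by small steps. The differences were 0.39 ± 0.10 for Fzd8 (adjusted p = 0.0402) and 0.34 ± 0.08 for Fzd6 (adjusted p = 0.0356). Each of these calls was lost in 9 of 15 alternative fits, with adjusted p up to 0.172 for Fzd8 and 0.151 for Fzd6.

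The 2 Frizzleds that did not pass the test also had higher readings in the mutants. Fzd5 differed by 0.35 (95% confidence interval 0.11 to 0.59, adjusted p = 0.0644). It passed in 3 alternative fits: quantile normalisation, the filter at the median, and the fit without control replicate 3. Fzd10 differed by 0.13 (interval -0.07 to 0.33, adjusted p = 0.358). A transcript on the strand opposite Fzd10, Fzd10os, is not a member and was not above background on any array.

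**Figure D2:**
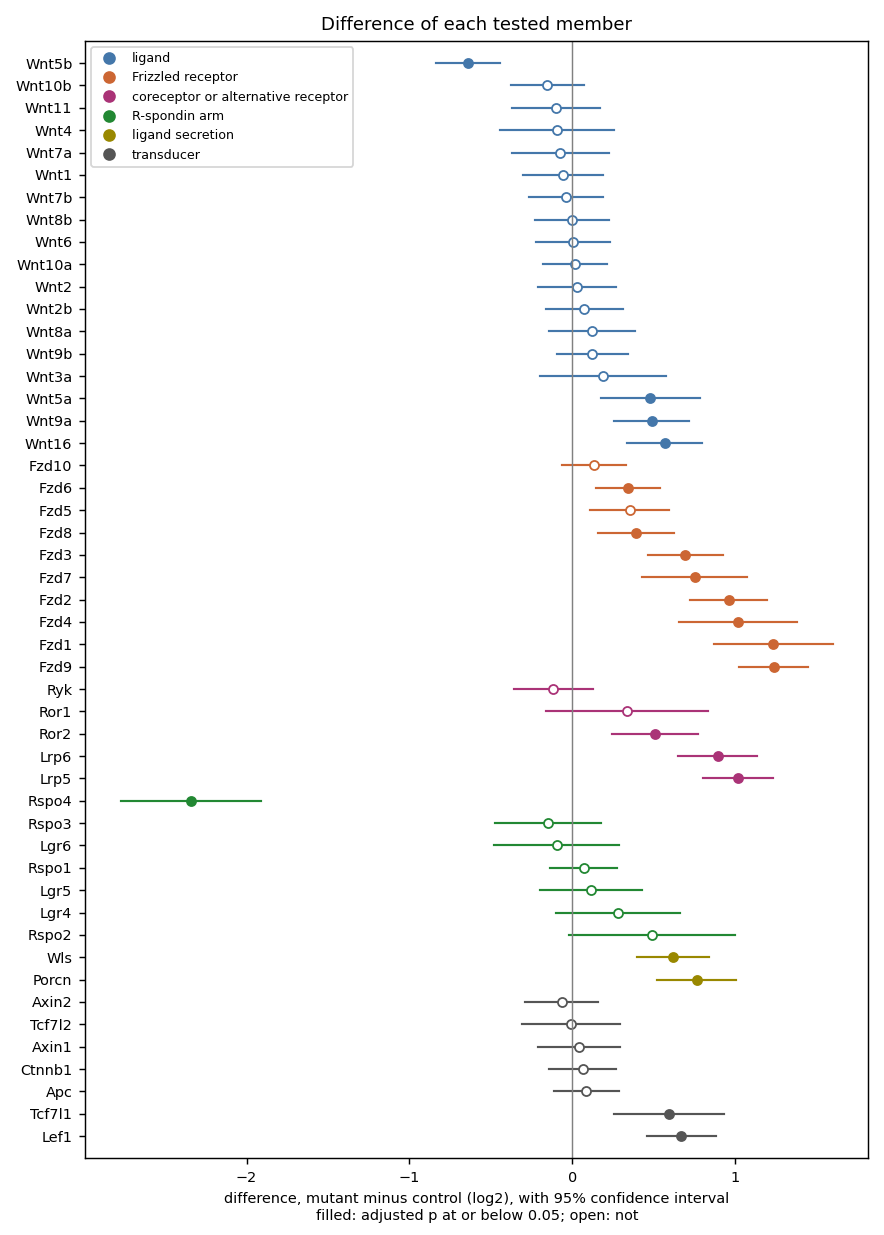
Difference of each of the 49 tested members, mutant minus control on the log2 scale, with 95% confidence intervals from limma over 3 arrays per group; filled points have an adjusted p at or below 0.05. The Frizzleds lie to the right of 0 from Fzd10 at 0.13 to Fzd9 at 1.24, while 14 of the 18 tested ligands straddle 0 and Rspo4 stands alone at -2.34.

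Of the 5 coreceptors and alternative receptors, 3 rose and none fell, a share of 60%, beside 14.7% of all genes tested. Lrp5, the coreceptor in which loss and gain of function alter human bone mass, read 7.94, 7.99 and 7.78 on control arrays 1, 2 and 3 and 8.91, 8.88 and 8.96 on mutant arrays 1, 2 and 3. No control array came near the mutants. The difference was 1.01 ± 0.09 (adjusted p = 0.000886), a 2.02-fold higher intensity. Lrp6, its close relative, was at 9.04, 8.97 and 8.81 in the controls and 9.81, 9.73 and 9.95 in the mutants. The separation was complete, at 0.89 ± 0.10 (adjusted p = 0.00211), or 1.85-fold.

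Ror2, a receptor tyrosine kinase for Wnt5a that is needed for cartilage and limb growth, lay at 8.20, 8.03 and 7.82 in the controls and 8.52, 8.53 and 8.52 in the mutants. The 3 mutant arrays were almost identical while the controls spread. The rise of 0.51 ± 0.11 (adjusted p = 0.0243) lost its call in 5 of 15 alternative fits, with adjusted p up to 0.0994. Ror1 was not called (difference 0.34, adjusted p = 0.351), and control replicate 1 lay within the range of the mutants. It passed in the fit without control replicate 1. Ryk, which lacks an active kinase, was not called either (difference -0.12, adjusted p = 0.508).

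Both genes of ligand secretion rose, where 7.84% of all genes tested were called higher. Porcn, the enzyme that attaches the lipid every Wnt needs, measured 6.82, 6.52 and 6.69 in the controls and 7.50, 7.42 and 7.40 in the mutants. Control replicate 2 was not above background, and the mutant arrays all were. Its difference was 0.76 ± 0.10 (adjusted p = 0.00398). Wls, the carrier that brings lipid-bearing Wnts to the cell surface, measured 9.06, 8.91 and 8.85 in the controls and 9.63, 9.53 and 9.51 in the mutants. The groups were separated by more than the spread of the controls. The rise was 0.62 ± 0.09 (adjusted p = 0.00613), or 1.54-fold.

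The ligands showed no such common direction, with a median difference of 0.01. Of 18 tested, 3 rose and 1 fell, a share of 22.2%, beside 14.7% of all genes tested. Most ligands were dim, with 3 of the 19 above background on all 6 arrays (Wnt4, Wnt5b and Wnt11) and 9 on none. Wnt5b, a ligand known from prehypertrophic chondrocytes, fell. Its level was 7.44, 7.38 and 7.42 on control arrays 1, 2 and 3 and 6.68, 6.83 and 6.79 on mutant arrays 1, 2 and 3, above background throughout. The controls lay close together and every mutant array lay below them. The difference was -0.64 ± 0.09 (adjusted p = 0.00363), a 1.56-fold lower intensity. Of 9 markers of prehypertrophic and hypertrophic chondrocytes, 5 fell and 1 rose, beside 6.82% of all genes tested called lower and 7.84% higher. The falls ran from -0.50 for Col10a1 to -1.29 for Foxa2, and the rise, of Mmp13, was 2.23. The mean of the 9 markers, Mmp13 included, ran from 10.10 to 10.35 in the controls and from 9.83 to 10.08 in the mutants. The part of these markers in the fall of Wnt5b was not tested.

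Wnt16, a ligand of joint tissue and cortical bone, read 6.41, 6.40 and 6.30 in the controls and 6.81, 6.92 and 7.08 in the mutants. Of the controls 1 was above background, against all 3 mutants. It rose by 0.57 ± 0.10 (adjusted p = 0.0104). The call was lost in 2 of 15 alternative fits. In the fit without mutant replicate 3 the adjusted p was 0.0547, and in the fit without control replicates 2 and 3 the rise was 0.52. Wnt9a, a ligand of the forming joint, read 6.58, 6.44 and 6.48 in the controls and 6.88, 6.94 and 7.13 in the mutants. Again 1 control array and all mutant arrays were above background. The rise of 0.49 ± 0.10 (adjusted p = 0.0184) lost its call in 4 of 15 alternative fits. Wnt5a, the relative of Wnt5b that signals in perichondrium and growth plate, was at 5.91, 6.02 and 5.66 in the controls and 6.16, 6.38 and 6.48 in the mutants. All 6 readings were at or below background, so no fold is given, and the call (adjusted p = 0.0485) was lost in 12 of the 14 alternative fits that tested it.

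The other 14 tested ligands differed by between -0.15 and 0.19, and 7 of them were above background on no array. None had groups that did not overlap, where 20.0% of all genes tested had all mutant arrays above and 16.7% all below the controls. Wnt11, a ligand above background on every array, differed by -0.10 (adjusted p = 0.617). Wnt4, another ligand of prehypertrophic cells and joints, differed by -0.09 (adjusted p = 0.732) on its brighter probe set. Its second probe set gave 8.08, 7.70 and 7.60 on control arrays 1, 2 and 3 and 7.34, 7.46 and 7.51 on mutant arrays 1, 2 and 3, a difference of -0.36 without overlap. The probe sets of Wnt4 therefore did not give the same picture, and no test was made on the second. Several ligand genes are chromosomal neighbours. Wnt9a rose while its neighbour Wnt3a was not called (difference 0.19), and the pairs Wnt6 with Wnt10a and Wnt10b with Wnt1 held no called gene.

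In the R-spondin arm, 1 of 7 members was called, a share of 14.3% that sits at the level of all genes tested (14.7%). That member had the largest difference of all members in either direction. Rspo4, a secreted R-spondin known from nail development, was at 8.18, 7.78 and 8.17 on control arrays 1, 2 and 3 and at 5.34, 5.97 and 5.79 on mutant arrays 1, 2 and 3. Every control array was well above background and no mutant array was. The measured difference was -2.34 ± 0.18 (adjusted p = 0.00052). Since the mutants are known only to lie under background, the intensity was at least 2.76-fold lower, where the measured means are 5.07-fold apart. Marrow markers fell on the same mutant arrays, and their part in the fall of Rspo4 was not tested.

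The other R-spondins and the Lgr receptors gave no call. Rspo2, which is expressed in limb and lung, differed by 0.49 with overlapping groups (adjusted p = 0.185). It passed with the replicate number as a block. Rspo3 differed by -0.15, Rspo1 by 0.07, Lgr4 by 0.28, Lgr5 by 0.11 and Lgr6 by -0.10, with adjusted p of 0.306 or more.

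Among the 7 intracellular transducers measured, 2 rose and none fell, a share of 28.6%, beside 14.7% of all genes tested. Lef1, a DNA-binding partner of beta-catenin and itself a target of the pathway, read 8.39, 8.17 and 8.24 in the controls and 8.94, 8.96 and 8.91 in the mutants. The mutant arrays lay close together above every control. The difference was 0.67 ± 0.09 (adjusted p = 0.00426), or 1.59-fold. Tcf7l1, a family member that mostly represses, read 8.14, 7.79 and 7.60 in the controls and 8.52, 8.47 and 8.33 in the mutants. Control replicate 1 came nearest to the mutants. The rise of 0.59 ± 0.15 (adjusted p = 0.0341) was lost in 7 of 15 alternative fits, with adjusted p up to 0.175.

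Ctnnb1, the gene of beta-catenin, was at 10.94, 10.82 and 10.79 in the controls and 10.85, 10.95 and 10.94 in the mutants, and the groups overlapped. The difference was 0.06 (interval -0.14 to 0.27, adjusted p = 0.687), so the interval holds no rise as large as those of Lrp5 or Fzd9. The arrays measure its RNA, whereas the pathway acts on its protein. Axin2, a scaffold of the destruction complex and the most widely used readout of beta-catenin activity, was at 6.70, 6.79 and 6.91 and 6.82, 6.64 and 6.75. Its groups overlapped near background, with a difference of -0.07 (interval -0.29 to 0.16, adjusted p = 0.698). Axin1 (0.04), Apc (0.09) and Tcf7l2 (-0.01) were not called.

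Beyond the members, 119 tested genes from lists of the pathway gave 35 calls, 31 higher and 4 lower, with a median difference of 0.13. Over all genes tested, 14.7% were called, 7.84% higher and 6.82% lower. With 1 array left out the count of 35 calls ran from 15, without mutant replicate 3, to 37, without control replicate 1. It was 18 without mutant replicate 1, 19 without mutant replicate 2 and 21 without control replicate 2. Of 12 genes of receptor turnover and coreceptor-like function, 6 rose (50%) and none fell. They were the glypicans Gpc3 (2.42) and Gpc6 (0.68), the Wnt7 coreceptors Adgra2 (1.06) and Reck (0.75), the Dickkopf receptor Kremen1 (0.97) and Tmem59 (0.53). Gpc3 was above background on 1 of 3 control arrays and Adgra2 on none, where the bound was at least 1.47-fold. The list had 4 rises without mutant replicate 1 or mutant replicate 3.

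The secreted antagonists and release factors moved the same way, with 8 of 23 higher (34.8%) and none lower. They were led by Sfrp2 (2.90), which was above background on 1 of 3 control arrays. The next were Igfbp4 (1.70), Dkk3 (1.62), Frzb (1.31), Sfrp1 (1.23) and Sfrp4 (1.22). The list had 5 rises without control replicate 2, mutant replicate 2 or mutant replicate 3. Of 27 genes of the cytoplasmic relay, 3 rose and 1 fell, a share of 14.8% that sits at the level of all genes. Those that rose were the feedback regulators Nkd1 (0.64) and Dact1 (0.73) and the Lrp6-binding Caprin2 (0.32), and the kinase Gsk3b fell by 0.55 (adjusted p = 0.00917). With 1 array left out, between 0 and 2 of the relay genes were higher and between 0 and 1 lower. Of 16 nuclear partners, the beta-catenin inhibitor Ctnnbip1 rose (0.60) and the chromatin remodeller Smarca4 (-0.66) and corepressor Tle4 (-0.38) fell. These calls made up 18.8% of the nuclear partners, near the 14.7% of all genes tested. With 1 array left out, both the rises and the falls of this list numbered between 0 and 3; there were no falls without control replicate 2 or any of the mutant replicates.

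Target genes listed from other tissues included 10 of 23 that rose (43.5%), beside 7.84% of all genes tested, and none that fell. With the 3 members among them set aside, 9 of 20 rose. The count of 10 became 6 without mutant replicate 3, and in 5 of 15 alternative fits 1 target gene was called lower. The largest were Twist1 (1.46), Tnfrsf19 (1.02), Apcdd1 (0.94), Lef1 (0.67), Nkd1 (0.64) and Bambi (0.58), of which Apcdd1 and Nkd1 also stand in the lists of antagonists and of the relay. Many of these genes answer to other signals as well. Ccnd1 (-0.50, adjusted p = 0.056), Myc (0.27, adjusted p = 0.196) and Sp5 (-0.01) were not called. In the beta-catenin-independent and planar polarity branch, 7 of 26 rose and 1 fell, a share of 30.8% called, beside 14.7% of all genes tested. The rises numbered between 2 and 6 with 1 array left out. There were 4 rises with median centring, without the filter and with the replicate block. The fall was lost with that block, and without control replicate 2, any of the mutant replicates, or control replicates 2 and 3. The 6 largest differences were those of Prickle2 (0.96), Daam2 (0.82), Nfatc4 (0.80), Plcb1 (0.63), Camk2g (0.62) and the falling Nfatc3 (-0.49). Prickle2 was above background on 1 of 3 control arrays and Nfatc4 on none.

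**Figure D3:**
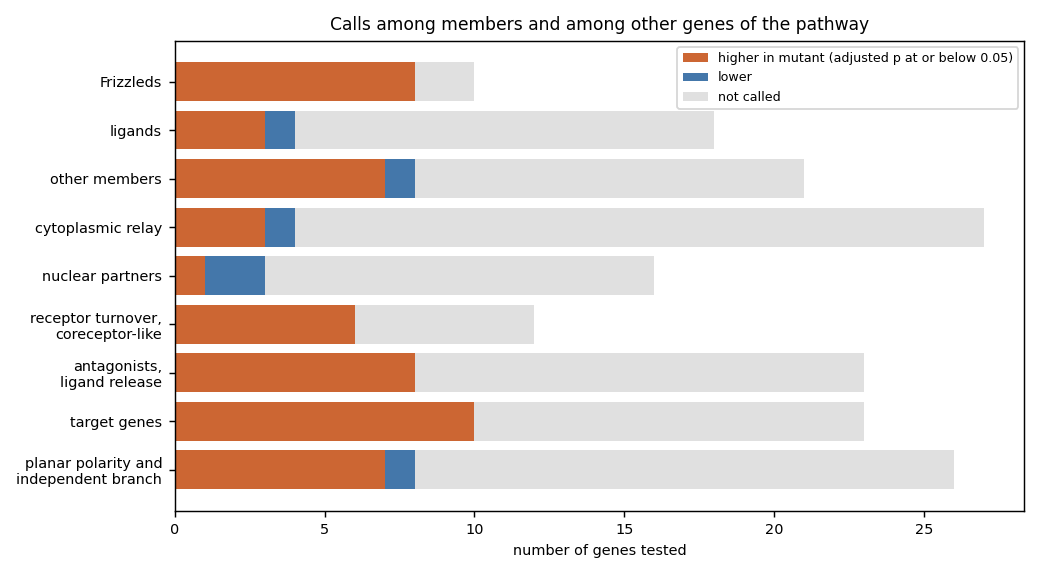
Number of tested genes called higher, lower or not at all, for 3 groups of members and 6 lists of pathway genes. The list of target genes includes 3 members (Axin2, Lef1 and Lgr5), which are also counted among the other members. The Frizzleds, with 8 of 10 higher, show the largest share, and the cytoplasmic relay, with 3 of 27 higher and 1 lower, and the nuclear partners the smallest shares of rises.

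Markers of other cell types moved with these genes. Of 11 fibrous tissue, perichondrium and tendon markers, 9 rose and none fell, where 7.84% of all genes tested were called higher and 6.82% lower. Their mean level was 8.83, 8.63 and 8.25 on control arrays 1, 2 and 3 and 9.89, 9.84 and 9.89 on mutant arrays 1, 2 and 3. The tendon marker Tnmd lay above background on 1 of 3 control arrays, at 6.69, 6.27 and 5.65, and reached between 8.52 and 8.62 in the mutants.

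Endothelial markers, with 8 of 10 higher, averaged between 6.51 and 6.64 on the control arrays and between 7.16 and 7.42 on the mutant arrays. Smooth muscle and pericyte markers, with 4 of 7 higher and 1 lower, ran from 7.35 to 7.74 in the controls and from 8.49 to 8.67 in the mutants. Macrophage and osteoclast markers, with 7 of 10 higher and 1 lower, ran from 7.43 to 7.59 and from 8.06 to 8.44. Marrow markers moved the other way, with 22 of 26 lower. Their number above background on every array of a group was 22 in the controls and 5 in the mutants. Of the other lists, adipocyte and skeletal muscle markers had 2 of 6 higher each, osteoblast markers 1 of 5 lower, and T lymphoid markers no call among 7. The part of these cell types in the rise of the Wnt receptors was not tested.

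**Figure D4:**
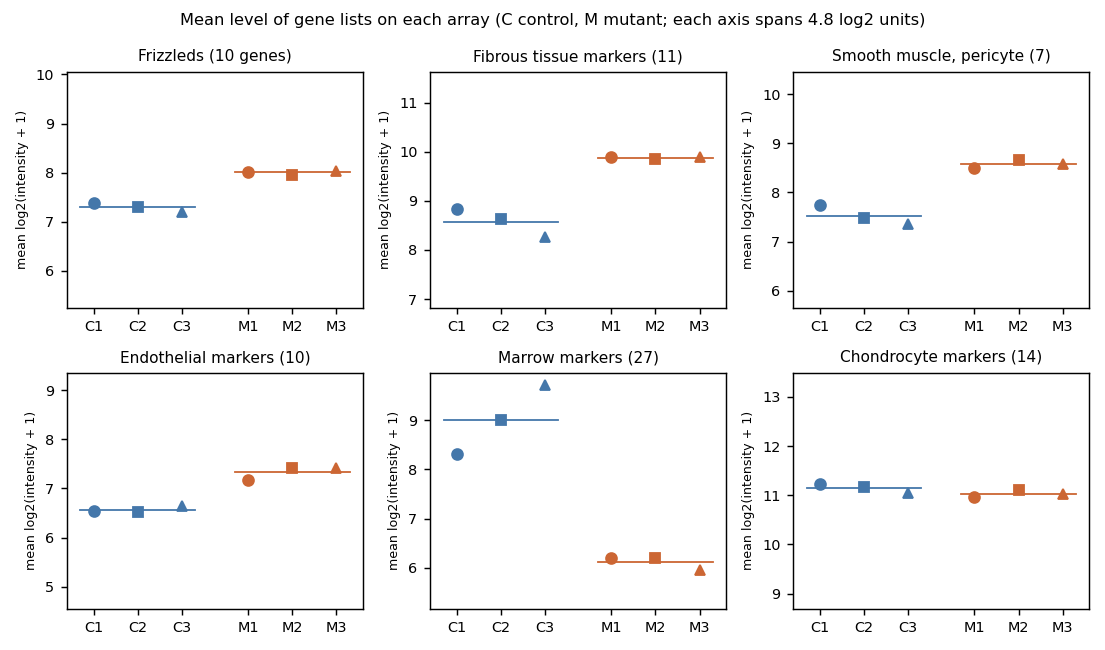
Mean log2 level of the 10 Frizzleds and of 5 marker lists on each array, with controls C1 to C3 in blue, mutants M1 to M3 in orange and horizontal lines at the group means; every panel spans the same number of log2 units. Frizzled, fibrous, smooth muscle and endothelial means are higher on all mutant arrays, marrow means are lower, and chondrocyte means lie between 10.97 and 11.22 throughout.

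Control replicate 1 held the lowest marrow marker level of the controls, so the members were also set against it alone. That array also held the highest fibrous tissue (8.83), smooth muscle and pericyte (7.74) and chondrocyte (11.22) marker levels of the controls. Its endothelial marker level lay between those of control replicates 2 and 3. The comparison therefore cannot separate marrow from those other markers. The groups of the 18 members that rose did not overlap, which already places their mutant arrays above this control, so only the sizes are given. The differences to control replicate 1 ran from 0.29 for Tcf7l1 to 1.17 for Fzd9, with a median of 0.54 beside 0.68 against all controls. Control replicate 1 was the highest control for 14 of the 18, control replicate 2 for 4 and control replicate 3 for none. With control replicates 2 and 3 left out, the fit called 13 members, 11 of them higher; there the lone control was assumed to vary like the mutants.

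**Figure D5:**
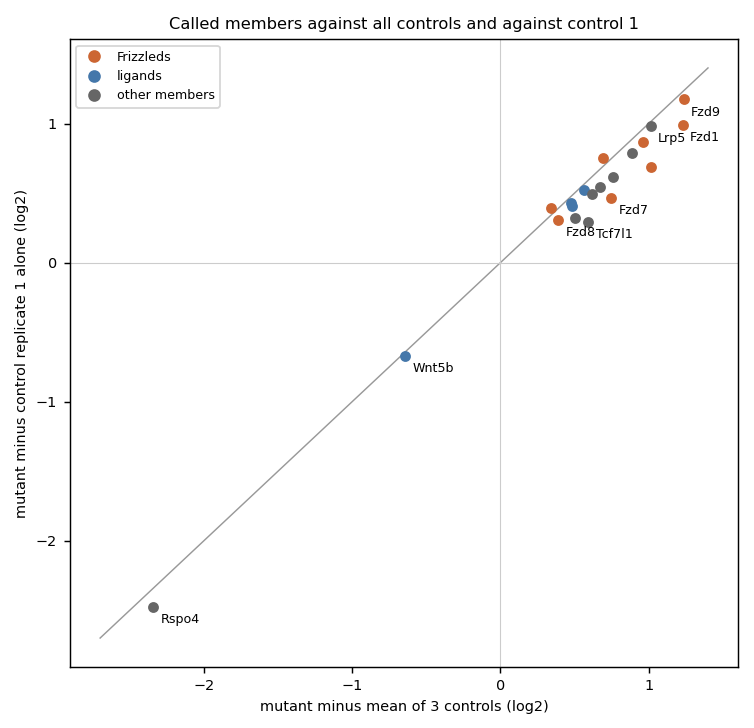
Difference of each of the 20 called members against control replicate 1 alone, on the vertical axis, and against the mean of the 3 controls, on the horizontal axis, both on the log2 scale; the line marks equal values. Most risen members lie under the line by differing amounts, such as Fzd9 at 1.17 against 1.24 and Tcf7l1 at 0.29 against 0.59. Wnt5b and Rspo4 stay on the lower side.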

How the data were processed

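Total RNA from 6 samples, 3 per group, was labelled from 300 ng and hybridised to Affymetrix arrays, per the labels. The authors deposited 1 intensity per probe set and array on a linear scale; the labels do not say how probes were summarised or normalised, and scanner files were not analysed here. The table held 35512 probe sets. The annotation paired 21789 with a gene of their own and 1621 with more than 1, and it left out 12102; names were updated by gene number for 21698 and kept for 91. Values were taken as log2(intensity + 1). The lowest 25% of probe sets by mean (under 46.2) were left out, and the brightest probe set stood for each gene. Differences between the groups were fitted by lmFit and eBayes of limma 3.58.1 (R 4.3.3), and p-values were adjusted by Benjamini-Hochberg over 17020 genes. The script was tested on simulated data. With 3 against 3, an exact permutation test cannot go below p = 0.1, so none is given. The number of arrays limits the precision.

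Values on every array are given for called members, for members with separated groups and a difference of at least 0.5, and for Ctnnb1, Axin2, Lrp5, Lrp6 and Wnt5a. Of each pathway list, called genes are named, at most the 6 with the largest differences. The members and lists were chosen with earlier results of these data known. Promoter sequences come from RefSeq (GRCm38.p6). Nothing in the labels says that replicate numbers pair a control with a mutant array, so they were not taken as pairs. Same-numbered control and mutant arrays correlated by 0.08, 0.21 and -0.08 in their deviations from the group means. Differently numbered arrays correlated by between -0.18 and 0.11. With so few arrays these values cannot decide whether the arrays were paired. Alternatives were another normalisation, median centring, other filters, the mean of probe sets, an intensity trend, a pseudocount of 16, a replicate block, and arrays left out.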

Additional observations from a re-analysis of the deposited data

How the results depend on the processing

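The groups of the 20 called members did not overlap, so fits with arrays left out could not turn their direction. None of the 20 changed direction in the rest of the 15 alternatives either. Small differences of members that were not called, such as Ctnnb1 (-0.03 to 0.11) and Axin2 (-0.12 to 0.03), crossed 0. Of the 20, 12 kept their call in every alternative that tested them and 8 lost it at least once; 3 members gained a call in at least 1. With control replicates 2 and 3 left out, 13 members were called, 11 of them higher. Leaving out 1 array at a time gave between 12 and 19 members called, between 10 and 17 higher, between 5 and 7 Frizzleds higher and between 15 and 37 pathway genes called; fewer arrays were then fitted. The 2 lower calls were found in every alternative. The median difference of the tested Wnt members, 0.12, became 0.28 with the filter at the median, which leaves out dim genes, and lay between 0.0883 and 0.143 with 1 array left out. In the fit with the replicate block, 18 members were called, 16 higher, with 6 Frizzleds higher and 27 pathway genes called. Without the block, 20 members were called, 18 higher, with 8 Frizzleds higher and 35 pathway genes called. Whether the numbers pair the arrays is not known. Signal over background limits what can be said of the ligands, 9 of which were above background on no array.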
